A study of Mus musculus with 6 samples.

Results

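The replication-dependent histone genes were examined as the 67 protein-coding genes of the GENCODE vM1 annotation, of 22380 protein-coding genes in all, whose symbol starts with Hist1h, Hist2h, Hist3h or Hist4h. Accessible chromatin had been mapped by ATAC-seq, in which the transposase Tn5 inserts sequencing adapters into open DNA, in NMuMG, a line of mouse epithelial cells from normal mammary gland. All cells first spent 6 h without serum and insulin. Vehicle (HCl with bovine serum albumin) was then given for 2 h, while the treated cells got 5 ng/ml of TGFβ1 for either 2 h or 12 h, with 2 biological replicates for each of the 3 conditions, and the authors made 1 list of reproducible peaks per condition from both replicates. Vehicle ended at 2 h, so treatment and the longer time without serum and insulin cannot be told apart at 12 h. Since a list gives nothing for the single replicates, conditions were not tested against each other, and the read depth behind a peak is unknown. By the study's own counts, each vehicle library had more filtered reads than either 12 h library. Where 3 values of a gene stand together below, they follow the order vehicle, 2 h and 12 h.

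The cells of every group belong to this 1 line. Among genes that mark epithelial cells, Krt8 and Krt18 had a peak at their start site in all 3 lists and Cldn4 in both TGFβ lists, while Epcam and Esrp1 had none, and none of 3 blood cell genes (Ptprc, Cd3e and Csf1r) had one. These markers were chosen for this check alone. The vehicle list was the shortest, with 18994 distinct intervals against 36867 at 2 h and 36874 at 12 h of TGFβ.

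Replication-dependent histones package newly made DNA, and their genes are transcribed mainly in S phase. The genes are short, most lack introns, and their messages end in a conserved stem-loop in place of a poly(A) tail. The core histones H2A, H2B, H3 and H4 form the nucleosome and H1 binds the linker DNA, and the genes lie in clusters where NPAT and other factors gather in nuclear histone locus bodies. Genes for H2A and H2B are often paired head to head around a shared promoter.

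The 67 genes comprised 6 for H1, 19 for H2A, 18 for H2B, 11 for H3 and 13 for H4. In 62 of them the coding sequence lay in a single exon. Chaining neighbours up to 100 kb apart gave 8 clusters on mm9 (NCBIM37). All 55 Hist1h genes lay on chromosome 13, in clusters of 18 (chr13:21802632-21934399), 5 (chr13:22121982-22140545), 29 (chr13:23617919-23861283), 2 (chr13:24020637-24031720) and 1 (chr13:51293057-51303434). The 9 Hist2h genes formed 1 cluster (chr3:96018839-96087924), the 2 Hist3h genes another (chr11:58757413-58775176), and Hist4h4 stood alone on chromosome 6.

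A search of the 150 bases after each stop codon for a hairpin with 6 paired bases on each side of a 4-base loop, starting with GG and with TT in the loop, found it in 61 of the 67 genes (91.0%) and in 73 of all 21930 protein-coding genes with an annotated stop codon (0.333%). It began a median of 30 bases after the stop codon. The commonest form is shown because it defines this class of message, with the loop in capitals, and 39 genes had exactly these 16 bases. At Hist1h1e they lie in the annotated exon, at chr13:23713651-23713666 on the minus strand.

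Stem-loop: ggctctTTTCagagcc

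No such hairpin was found after Hist2h2be, Hist2h2bb, Hist1h2an, Hist1h3g, Hist1h4a and Hist1h2al.

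The sequence before the 5′ end was searched over 200 bases on both strands. CCAAT, the box bound by NF-Y, was present at 57 of 67 members (85.1%) and at 30.6% of all protein-coding genes. TATAAA, the core of the TATA box, was present at 29 members (43.3%) against 10.0% of all genes. The octamer ATTTGCAT, the site of OCT1 in H2B promoters, was present at 15 members (22.4%) against 1.35%, and all 15 encoded H2A or H2B. GGTCCG, a core of the H4 promoter element, was present at 13 members (19.4%) against 6.55%, of which 11 encoded H4. The E2F words TTTGGCGC and TTTCGCGC were present at 5 members (7.46%) against 0.612%, and the cyclic AMP element TGACGTCA at 4 (5.97%) against 1.83%. The AP-1 words TGACTCA and TGAGTCA were found at none of the 67 members and at 3.11% of all genes. The windows of head-to-head H2A and H2B genes overlap, so 1 site can count for both partners. The single octamer between Hist1h2ae and Hist1h2bg, for example, was counted at both genes. These shares are therefore counts of genes and not of separate sites. A match is a description of letters and not a bound site, and no match says only that these letters are not in the window.

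A contrasting pair of head-to-head promoters is shown whole between the 5′ ends, with every searched motif in capitals. Hist1h2ag and Hist1h2bj (chr13:22134819-22135082, plus strand, intergenic) lay under a single interval in all 3 lists. Hist1h2ak and Hist1h2bn (chr13:21845777-21845991, plus strand, intergenic) had no interval in any list. The former held 5 CCAAT words, 1 cyclic AMP element and 1 E2F word, and the latter held 3 CCAAT words. Other pairs did not follow this contrast. Hist1h2ae and Hist1h2bg, under a single interval, held 2 CCAAT words, while Hist1h2ba and Hist1h2aa, without an interval, held 4. Among members, CCAAT was present at 39 of 45 with a region in at least 1 list and at 18 of 22 without.

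Hist1h2ag-Hist1h2bj: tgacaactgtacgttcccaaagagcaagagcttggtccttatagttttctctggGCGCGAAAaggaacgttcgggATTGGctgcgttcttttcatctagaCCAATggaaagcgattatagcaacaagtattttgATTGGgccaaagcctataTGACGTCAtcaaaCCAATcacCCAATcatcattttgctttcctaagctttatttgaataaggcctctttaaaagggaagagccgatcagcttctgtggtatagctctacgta
Hist1h2ak-Hist1h2bn: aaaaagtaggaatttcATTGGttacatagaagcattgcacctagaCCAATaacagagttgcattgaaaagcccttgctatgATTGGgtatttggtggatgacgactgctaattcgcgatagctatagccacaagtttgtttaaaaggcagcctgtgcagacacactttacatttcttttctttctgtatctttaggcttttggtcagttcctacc

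Peaks were first asked for at the start sites. Distinct intervals of at least 150 bp were taken, those with gaps under 1000 bp were merged into regions, and a gene was counted when a region lay within 1000 bp of the 5′ end of any of its transcripts. In vehicle 41 of 67 members had such a region (61.2%, 95% Wilson interval 49.2 to 72.0), against 41.8% of all protein-coding genes. At 2 h of TGFβ 44 members had one (65.7%, 53.7 to 75.9), against 47.8% of all genes. At 12 h it was also 44, against 47.6%. The intervals cover counting error only, and members that share a promoter are not independent of each other. With both TGFβ lists shortened to their widest intervals, as many as the vehicle list holds, only 8 members were left at 2 h and 13 at 12 h, since the intervals at histone genes are narrow. Among 148 genes with a symbol of the ribosomal protein form (Rpl or Rps and a digit, or Rplp), 84, 85 and 86 had a region. They were chosen by symbol alone, which can take in genes for other proteins, and 62 had no region in any list. Of 40 Hox genes, 1, 4 and 4 had one.

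Across the lists, 40 members had a region in all 3 (59.7%, 47.7 to 70.6), against 41.3% of all genes, and 22 had none in any (32.8%, 22.8 to 44.7), against 50.7%. Only 5 members differed between lists. In both TGFβ lists but not in vehicle were 4 members (5.97%), Hist1h4k, Hist1h4i, Hist1h2af and Hist1h2ab, while 6.26% of all genes had a region at 2 h but not in vehicle and 6.24% at 12 h but not in vehicle. In vehicle and in neither TGFβ list was 1 member, Hist1h1c, and 37 of all protein-coding genes showed this pattern (0.165%). The member counts in the TGFβ-only pattern thus lay close to the share over all genes.

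By class, the count of genes with a region stayed at 12 of 18 for H2B and 9 of 11 for H3 in every list. It was 10 of 19 in vehicle and 12 in each TGFβ list for H2A. For H4 it was 5 of 13 in vehicle and 7 in each TGFβ list, and for H1 it was 5 of 6 in vehicle and 4 in each TGFβ list. The H4 class had the most members without a region in any list relative to its size, 6 of 13.

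**Figure D1:**
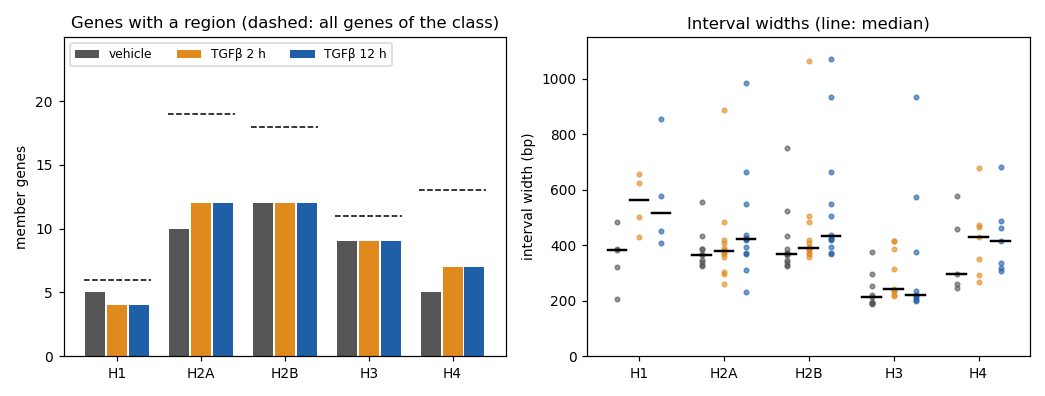
Histone genes by class. Left, the number of genes with a region within 1000 bp of a 5′ end in each list, with a dashed line at the size of the class. Right, the width in bp of the interval nearest to the 5′ end, 1 point per gene, with a line at the median. H3 genes have the narrowest median interval in every list, from 213 to 242 bp.

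Hist1h1c, which encodes an H1 linker histone (ENSMUSG00000036181.1, chr13:23830676-23832235, plus strand), was covered in vehicle by an interval of 382 bp at chr13:23830557-23830938. The interval reached 119 bp before and 262 bp past the 5′ end, over 34.7% of the coding sequence, and had a score of 841, on a scale of the authors that ran from 540 to 1000 in this list. Neither TGFβ list held an interval within 1000 bp of this gene. The nearest region at no histone start site, 7942 bp away, was present in all 3 lists with widths of 280, 421 and 391 bp. The 200 bases before the 5′ end (chr13:23830476-23830675, plus strand) are shown with the single CCAAT word in capitals.

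Hist1h1c: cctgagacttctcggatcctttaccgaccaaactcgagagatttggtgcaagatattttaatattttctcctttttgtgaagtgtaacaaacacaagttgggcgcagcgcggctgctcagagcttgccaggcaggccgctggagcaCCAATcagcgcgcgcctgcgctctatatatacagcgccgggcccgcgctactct

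The 4 members listed only after TGFβ had intervals of 230 to 464 bp, where the median over members was 388.5 bp at 2 h and 421.5 bp at 12 h. At Hist1h4k (ENSMUSG00000064288.4) the 2 h and 12 h widths were 464 and 461 bp. At Hist1h4i (ENSMUSG00000060639.4) they were 294 and 416 bp. At Hist1h2af (ENSMUSG00000061991.2) these widths were 296 and 311 bp. At Hist1h2ab (ENSMUSG00000061615.1) they were 260 and 230 bp. All of them covered the 5′ end and ended between 4 and 112 bp past it. Hist1h2af and Hist1h2ab encode H2A without a head-to-head partner within 1000 bp, and the other pair encode H4. The upstream 200 bases of Hist1h4i (chr13:22133222-22133421, minus strand), Hist1h2af (chr13:23625575-23625774, plus strand) and Hist1h2ab (chr13:23842757-23842956, plus strand) are shown, since these promoters were in the TGFβ lists alone. The capitals mark the H4 element core and a TATA word in the first, an E2F word and 2 CCAAT words in the next, and an octamer, 2 CCAAT words and a TATA word in the last.

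Hist1h4i: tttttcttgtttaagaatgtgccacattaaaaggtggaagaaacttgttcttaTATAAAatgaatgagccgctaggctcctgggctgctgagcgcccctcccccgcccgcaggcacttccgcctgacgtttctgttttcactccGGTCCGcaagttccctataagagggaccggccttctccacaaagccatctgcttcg
Hist1h2af: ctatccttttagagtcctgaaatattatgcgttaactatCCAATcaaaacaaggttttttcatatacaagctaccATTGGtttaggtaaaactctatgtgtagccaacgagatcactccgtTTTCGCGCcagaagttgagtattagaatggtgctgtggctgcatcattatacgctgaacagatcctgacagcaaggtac
Hist1h2ab: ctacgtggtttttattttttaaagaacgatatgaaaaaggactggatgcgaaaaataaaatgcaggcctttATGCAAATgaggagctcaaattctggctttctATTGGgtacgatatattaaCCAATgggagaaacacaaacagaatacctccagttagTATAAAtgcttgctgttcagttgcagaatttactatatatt

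The 22 members without a region in any list lay mostly in particular stretches of the clusters. In the cluster of 29 genes they were 3, Hist1h4h, Hist1h4c and the germ line gene Hist1h1t. In the cluster of 5 there were none. In the cluster of 18 they were 8, namely the pair Hist1h2ak and Hist1h2bn and the neighbouring run Hist1h2bq, Hist1h2ao, Hist1h4m, Hist1h4n, Hist1h2ap and Hist1h2br. On chromosome 3 they were 6 of 9, Hist2h2aa2, Hist2h2aa1, Hist2h3c1, Hist2h4, Hist2h3b and Hist2h2bb. The germ line pair Hist1h2ba and Hist1h2aa, the lone genes Hist1h2al and Hist4h4, and Hist3h2ba made up the rest. The nearest region of any list lay 1864 bp from the 5′ end of Hist2h2aa2, at 12 h alone, and farther from every other one, up to 49000 bp at Hist1h2al. Inside the margin, the most distant region that was counted lay 891 bp from Hist2h2ab in vehicle.

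Near-identical copies can leave short reads without a unique position, so the share of 75-base windows within 300 bp of each 5′ end that occur again elsewhere in NCBIM37 was counted. The reads were 75 bp long and paired-end, while windows were counted singly, so a repeated window need not mean an unplaced read pair. How reads with several positions were treated is not given in the sources used here. The 9 members with more than 50% of windows repeated were all among the 22 without a region. They were Hist2h2aa1, Hist2h2aa2 (76.3% each), Hist2h3c1 (79.3%), Hist1h4m (85.8%), Hist1h4n (86.7%), and Hist1h2bq, Hist1h2ao, Hist1h2ap and Hist1h2br (100%). The other 13 had 0 to 31.5% repeated, and the 45 members with a region in at least 1 list had 0 to 43.3%. Repeated sequence thus accompanied the lack of a region at these 9 genes, while Hist2h4, Hist2h2bb, Hist4h4, Hist1h1t and Hist1h2aa had no repeated window and no region, and its part in the result was not tested.

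The pair Hist1h2ap and Hist1h2br shows such a copy. The bases between their 5′ ends (chr13:21925445-21925611, plus strand, intergenic) are the exact reverse complement of those between Hist1h2bq and Hist1h2ao (chr13:21902069-21902235), and 2 CCAAT words are in capitals.

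Hist1h2ap-Hist1h2br: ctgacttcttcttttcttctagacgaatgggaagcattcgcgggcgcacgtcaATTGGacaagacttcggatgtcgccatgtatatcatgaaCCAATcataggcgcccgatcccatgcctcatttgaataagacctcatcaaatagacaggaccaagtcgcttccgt

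**Figure D2:**
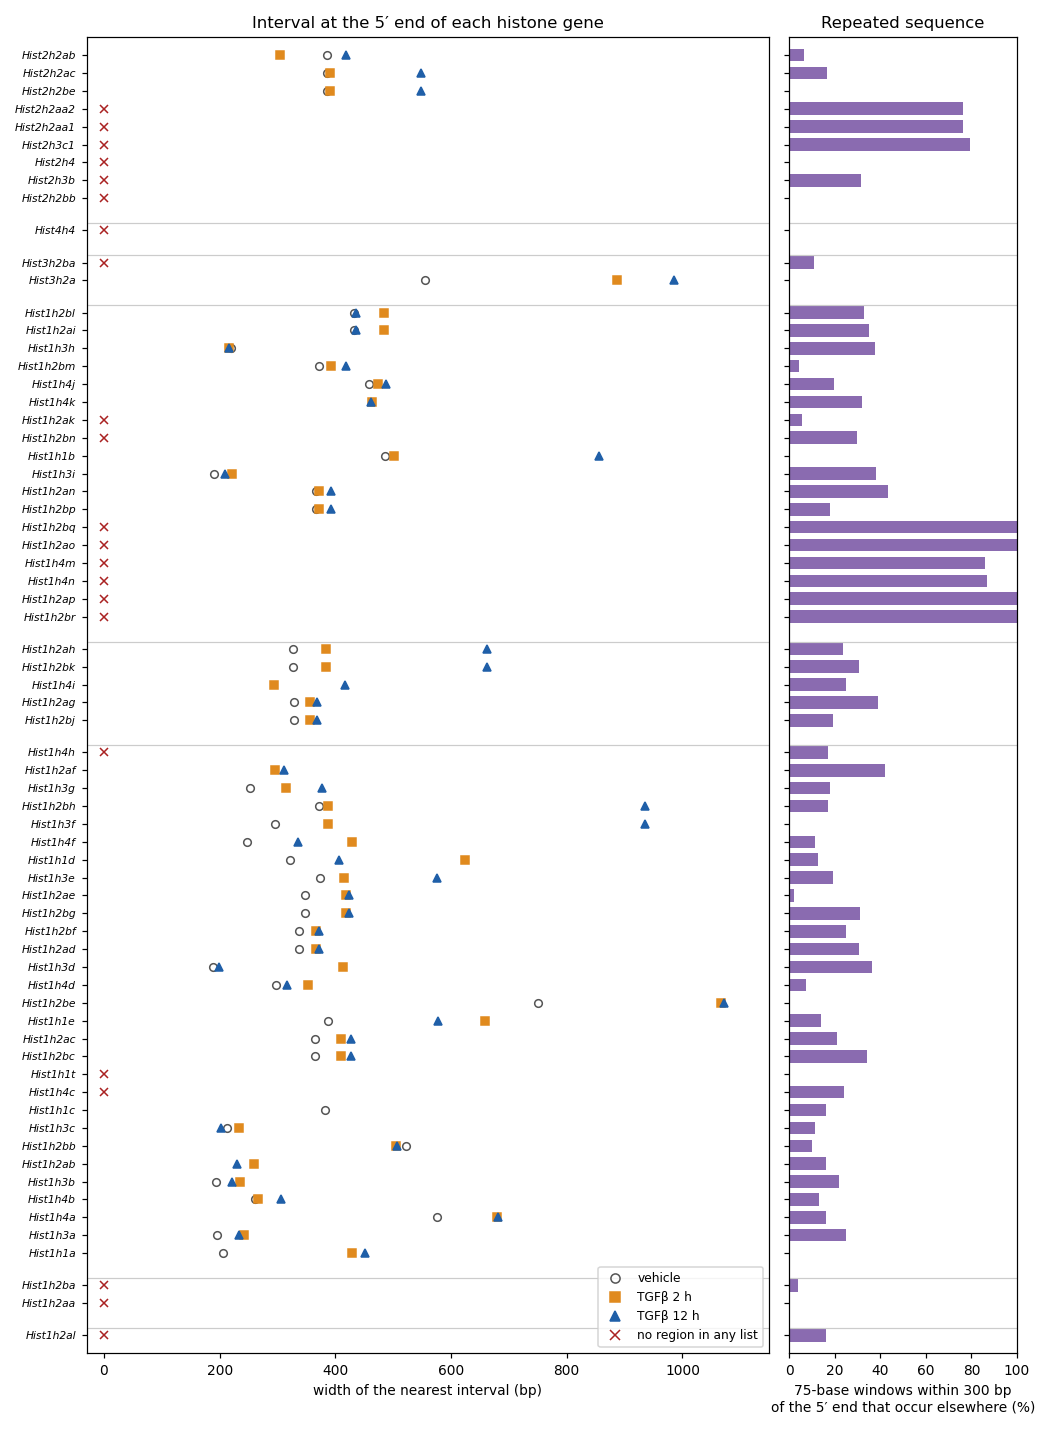
Each histone gene in genome order, with grey lines between clusters. Left, the width in bp of the interval nearest to the 5′ end in vehicle (open circles), at 2 h (squares) and at 12 h (triangles) of TGFβ. A cross at the left edge, which stands for no width, marks the 22 genes without a region. Right, the percentage of 75-base windows within 300 bp of the 5′ end that occur elsewhere in the genome. The 9 genes above 50% all carry a cross.

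Widths were compared next, first of single intervals, then of merged regions. The interval nearest to the 5′ end of the 41 members in vehicle was 188 to 750 bp wide, with a median of 347 bp. The 44 members at 2 h had 217 to 1066 bp and a median of 388.5 bp, and the 44 at 12 h had 199 to 1072 bp and a median of 421.5 bp. Over all protein-coding genes with an interval these medians were 694, 855.5 and 915 bp, and over genes with a ribosomal protein symbol 568.5, 724 and 894 bp. The member median thus lay under the lower quartile of all genes, which was 486, 641 and 707 bp.

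Of the 40 members with a region in vehicle and at 2 h, 37 had a wider interval at 2 h (92.5%) and 3 a narrower one, against 79.6% wider of 9289 genes overall. At 12 h, 37 of 40 were wider, against 85.0% of 9264 genes. The size of the difference was smaller than over all genes, with a median of 43.5 bp at 2 h and 54.5 bp at 12 h for members and of 150 and 192 bp for all genes. As a ratio to vehicle, the median was 1.12 at 2 h and 1.17 at 12 h for members and 1.20 and 1.28 for all genes. Counted by pairs of distinct intervals, since 40 genes share 32 of them, 29 were wider and 3 narrower at each time. The nearest interval was not always the same one across lists, as at Hist2h2ab and Hist1h3f, where those compared did not overlap. With 1 list per condition there is no replicate spread to set these differences against.

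The classes differed in width. H3 genes had the narrowest median interval, with 213, 242 and 222 bp. It was 365.5, 377.5 and 421.5 bp for H2A, 369.5, 391.5 and 431.5 bp for H2B, 298, 429 and 416 bp for H4, and 382, 562.5 and 514.5 bp for H1. In each list, 8 intervals lay over both 5′ ends of a head-to-head H2A and H2B pair and were counted in both classes. The H2A and H2B medians thus rest largely on the same intervals, each spanning more than 1 start site. Among H3 genes, Hist1h3d had 188, 414 and 199 bp, the first and last being the narrowest of all members in their lists. Hist1h3h measured 220, 217 and 217 bp, and Hist1h3i 191, 221 and 210 bp. H3 intervals of other genes reached 936 bp at 12 h at Hist1h3f, where the interval was shared with Hist1h2bh.

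Of the 13 head-to-head pairs with 5′ ends at most 1000 bp apart, 12 joined an H2A and an H2B gene, with 168 to 306 bp between the 5′ ends. In 8 of these 12 pairs a single interval lay over both 5′ ends, and this held in each of the 3 lists. Over these 8 the median width was 355.5, 386.5 and 425.5 bp, and all 8 were wider than in vehicle at both times, by 4 to 72 bp at 2 h and by 4 to 337 bp at 12 h. At Hist1h2ag and Hist1h2bj, whose promoter is printed above, the interval measured 328, 357 and 368 bp. At Hist1h2ah and Hist1h2bk it measured 326 and 383 bp and then 663 bp at 12 h. At Hist1h2ae and Hist1h2bg it measured 347, 419 and 424 bp, and at Hist1h2an and Hist1h2bp 367, 372 and 392 bp. The 4 pairs without any interval were those of Hist1h2ak, Hist1h2bq, Hist1h2ap and Hist1h2ba. All 12 pairs held at least 2 CCAAT words between the 5′ ends.

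The 4 H1 genes with a region in all lists had a wider interval at 2 h than in vehicle. At Hist1h1a the interval measured 205, 428 and 452 bp. At Hist1h1d these widths were 322, 624 and 407 bp, and at Hist1h1e 387, 658 and 577 bp. At Hist1h1b the interval lay 651 to 810 bp past the 5′ end, at or beyond the 3′ end of a gene of 743 bp, and measured 485, 501 and 856 bp. Hist1h1a, Hist1h1d and Hist1h1e thus each had an interval at least 200 bp wider at 2 h than in vehicle, while Hist1h1b had one 16 bp wider.

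The Hist2h and Hist3h members with an interval were few. Hist2h2ac and Hist2h2be shared one of 386, 390 and 548 bp. Hist2h2ab, 1 of their neighbours, had an interval of its own at 2 h (304 bp) and at 12 h (419 bp), while in vehicle its nearest was the one of that pair, 891 bp away. Hist3h2a, for an H2A, had 555, 887 and 985 bp, the last at chr11:58767901-58768885, and all of its 390 coding bases were covered in both TGFβ lists. A transcript of Trim17 is annotated from the same first base, so the interval cannot be given to Hist3h2a alone.

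Merging joined neighbouring genes and altered these widths. The 41 members with a region in vehicle fell in 27 regions, and the 44 at 2 h and at 12 h in 28 and 29. The median region at a member measured 382, 484 and 759.5 bp, against 766, 935 and 978 bp for all genes. The 12 h median fell under 500 bp without merging (421.5 bp) and with gaps under 500 bp merged (430 bp), and with a minimum interval width of 300 bp the order turned, to 474 bp at 2 h and 456.5 bp at 12 h. Of 40 members, 33 had a wider region at 2 h (82.5%), against 80.6% of all genes, and 32 at 12 h (80.0%), against 84.8%. The widest region at 12 h, 2831 bp, joined Hist1h4a, Hist1h3a and Hist1h1a and measured 2542 bp in vehicle and 2833 bp at 2 h. The largest differences came from such joins. At 2 h the region of Hist1h3b was 2556 bp wider than in vehicle, where it joined Hist1h2ab, and that of Hist1h3d 1515 bp wider, where it joined Hist1h2bf and Hist1h2ad, while at 12 h they were 29 and 11 bp wider. The region of Hist1h3h was 1430 bp wider at 12 h than in vehicle, because it joined that of Hist1h2bl and Hist1h2ai, while its own interval was 3 bp narrower. The region of Hist2h2ab, Hist2h2ac and Hist2h2be was 1304 bp wider at 12 h, as the new interval at Hist2h2ab joined it. The 6 members whose regions were narrower at 12 h by the most were Hist1h2bh and Hist1h3f (1206 to 936 bp), Hist1h2be and Hist1h1e (1951 to 1785 bp), and Hist1h3c and Hist1h2bb (1360 to 1323 bp). At Hist1h2bh, Hist1h2be and Hist1h1e the nearest interval itself was wider at 12 h, by 564, 322 and 190 bp. At Hist1h3f the nearest intervals did not overlap. In vehicle it was one of 296 bp, 182 bp past the 5′ end, and at 12 h the 936 bp interval shared with Hist1h2bh.

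**Figure D3:**
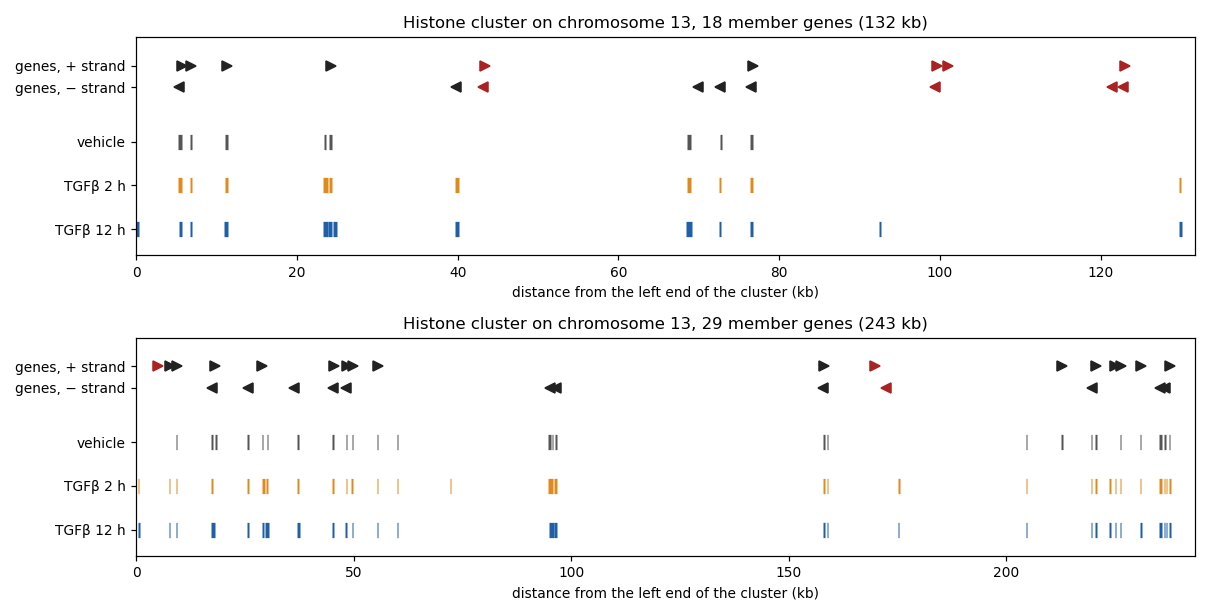
The cluster of 18 histone genes (top) and the cluster of 29 (bottom) on chromosome 13, by distance in kb from the left end. Arrowheads mark 5′ ends on each strand, red for genes without a region in any list and black for the others. Bars mark intervals of at least 150 bp in vehicle, at 2 h and at 12 h of TGFβ, with short ones drawn wider than to scale so that they can be seen. In the top map the 6 red arrowheads right of 90 kb belong to the inverted copies, where no list has an interval at a start site.

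The position of the intervals was then measured against the 5′ end. It lay inside the nearest interval at 36, 41 and 42 members. There the interval reached a median of 267, 296 and 308.5 bp upstream, against 304, 351 and 369 bp for all protein-coding genes. Downstream it reached a median of 75, 89 and 101.5 bp at members, against 363, 485 and 509 bp for all genes. Of the 36 members in vehicle 31 ended within 150 bp of the 5′ end (86.1%), against 1565 of 7817 over all genes. At 2 h it was 33 of 41 (80.5%), against 8.28%, and at 12 h 31 of 42 (73.8%), against 5.57%. The intervals thus stopped shortly after the 5′ end at most histone genes, and the median member had 7.14, 11.4 and 15.2% of its coding bases covered.

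The share of members covered fell steeply on the gene side. At the 5′ end 87.8% of members with a region were covered in vehicle and 95.5% at 12 h, and 200 bp into the gene 14.6% and 18.2%. For all protein-coding genes it was 85.5% and 86.7% at the 5′ end and 68.9% and 82.3% at 200 bp. Going upstream by 300 bp, members had 31.7% in vehicle and 54.5% at 12 h, and all genes 46.8% and 58.7%.

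**Figure D4:**
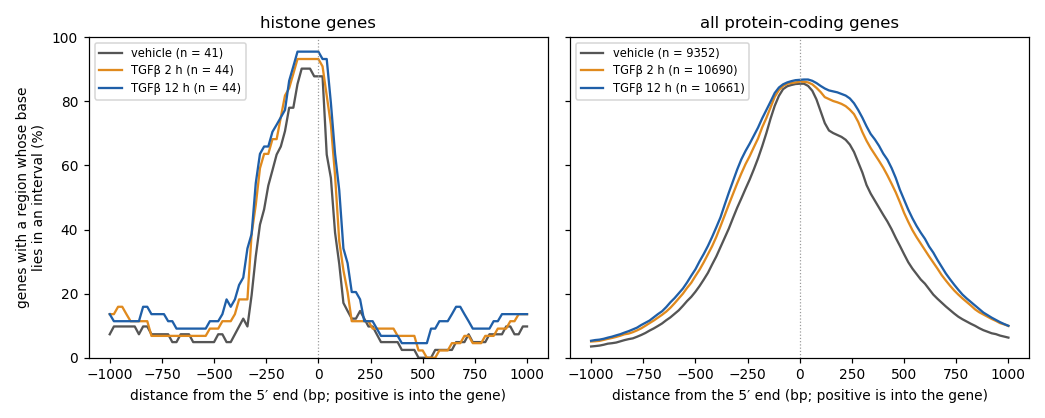
Share of genes, among those with a region in the list, for which the base at a given distance from the 5′ end lies in an interval, for the histone genes (left) and for all protein-coding genes (right). Positive distances run into the gene, and each line is 1 list. The histone lines fall below 20% by 200 bp into the gene, whereas the lines of all genes stay above 65% there.

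Repeated sequence lay mostly on the gene side of the 5′ end. The 300 bp after the 5′ end had a median of 43.8% of 75-base windows repeated over the 67 members, and the 300 bp before it 0%. Within the intervals that covered a 5′ end the median was 0% in each list, and in the 150 bp just past their downstream edge it was 43.5, 57.9 and 66.4%. At 30 of 36 members in vehicle the stretch past the edge was the more repeated, at 33 of 41 at 2 h and at 33 of 42 at 12 h. The intervals lay mostly before the 5′ end, where members with a region had little repeated sequence, and the part of position in this contrast was not tested. Where no window after the 5′ end was repeated, the downstream reach had a median of 184 bp in vehicle (4 genes, 26 to 389 bp). It was 310 bp at 2 h (4 genes, 86 to 476 bp) and 219 bp at 12 h (5 genes, 88 to 698 bp). In vehicle the longest were at Hist3h2a (297 bp), which shares its first base with Trim17, and Hist1h2be (389 bp), whose coding start is far away. Hist2h2be and Hist1h1a had 71 and 26 bp in vehicle and 205 and 235 bp at 12 h. Where some windows were repeated, the downstream reach had a median of 75 bp in vehicle (32 genes), 88 bp at 2 h (37 genes) and 101 bp at 12 h (37 genes). All of these medians lay under those of all genes, and the part of repeated sequence in the short reach was not tested.

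For some genes the annotated 5′ end sets what is counted. In 9 members the record begins at the coding start, so its true 5′ end may lie upstream. Hist1h2be has its annotated 5′ end 35168 bp before its coding start. Its intervals there measured 750, 1066 and 1072 bp. A separate region over the coding start at 23677825 on chromosome 13 measured 254, 263 and 280 bp, and extended 32, 42 and 57 bp into the coding sequence. Its widths lay within the range of the intervals at the other members. Counted from coding starts in place of 5′ ends, 41, 44 and 44 members had a region.

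That region is 1 of 15 inside the clusters that were not within 1000 bp of a member 5′ end. The vehicle list had 5 of them and each TGFβ list 13. Genome-wide, merging left 16765 regions from the vehicle list. The 2 h list gave 32548 and the 12 h list 33079, so the count was higher after TGFβ across the genome too. Whether the clusters differed from the genome in this was not tested. All 3 lists shared 4 of the 15, and 7 were in both TGFβ lists alone, 1 of which adjoins a vehicle region just outside the cluster border. The 12 h list alone held 2, the 2 h list alone 1, and 1 was missing at 12 h only. Only 2 lay within 1000 bp of another annotated 5′ end. The former was at the replication-independent histone gene H2afj, 3637 bp from Hist4h4, and measured 359, 1353 and 385 bp. The latter, at 12 h alone (472 bp), was near the pseudogene Hist2h3c2. The widest of the rest at 12 h, 1079 bp, lay 5073 bp from Hist1h2bl (chr13:21801861-21802939) in no annotated gene, and a region of 568, 803 and 773 bp overlapped the far exon of Hist2h2bb, 8092 bp from its 5′ end. With the TGFβ lists shortened to as many intervals as in vehicle, the counts were 3 at 2 h and 2 at 12 h.

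Genes that work with the replication-dependent histones were listed for comparison. All 18 genes for their transcription, its timing and 3′ processing found in the annotation, such as Npat, which activates them in S phase, and Slbp, which binds the stem-loop, had a region in all 3 lists, as did all 11 histone chaperone genes, such as Asf1b and Chaf1a. Their nearest intervals had medians of 677.5, 1023 and 999 bp and of 816, 982 and 1053 bp. At Npat these widths were 1148, 1090 and 1131 bp, and at Slbp 882, 903 and 919 bp. Of 11 replication-independent histone genes, 8 had a region in vehicle and at 2 h and 9 at 12 h, with medians of 760, 886.5 and 1076 bp. The exceptions were H1fx and H2afy2, with none, and the oocyte gene H1foo, with 275 bp at 12 h alone. The medians of these 3 lists were wider than that of the replication-dependent genes in each condition.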

How the data were processed

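The labels put 2 replicates in each of 3 groups. Per the labels and the methods of the study, the authors mapped reads to mm9 with the ENCODE ATAC-seq pipeline, called peaks with MACS2 2.1.2, kept those reproducible between both replicates, and deposited 1 BED list per condition. Its columns hold chromosome, start and end. In the vehicle list the authors also deposited a peak score of unstated scale, used here only to describe that list. In the TGFβ lists that column numbers the lines and was not used.

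Repeated lines were counted once, intervals under 150 bp were dropped and gaps under 1000 bp merged, after the methods of the study. No peak passed the end of its chromosome in NCBIM37, whose sequence and GENCODE vM1 annotation gave all positions (1-based). Windows of 75 bases were counted as repeated when they occurred again on either strand anywhere in that genome. Clusters were extended by 5 kb. All results are descriptions, with no test. Members and gene lists were chosen with earlier results of these data known. Named are members without a region in a list, at the widest and narrowest 12 h regions, with the largest width differences from vehicle to 12 h, of the germ line, and of Hist2h to Hist4h, with examples of classes and pairs chosen after their values were seen. Of 42 listed related genes 2 symbols were not in the annotation. Interval code was tested on simulated lists, with 0 disagreements in 4200 comparisons. Python 3.11.15, numpy 2.4.6, numba 0.67.0, statsmodels 0.14.6 and matplotlib 3.10.9 were used.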

Additional observations from a re-analysis of the deposited data

How the results depend on the processing

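No paired analysis was possible because each condition has a single list made from both replicates, and for the same reason no replicate was left out. Of 131 values recomputed under 13 settings, 114 stayed within 1.5 times a count or within the 95% interval of a median. Shortening the TGFβ lists to their 18337 widest intervals, the number in vehicle, moved most. It kept only intervals of at least 516 bp at 2 h and 548 bp at 12 h, wider than most at histone genes, so that 8 and 13 members had a region and 7 had one in all lists, while 41.6% and 42.6% of all protein-coding genes had one. A wider region than in vehicle was then left at 1 member at 2 h and 5 at 12 h, and 3 and 2 other regions inside the clusters remained. The median region at 2 h was 388.5 bp without merging, 390 bp with gaps under 500 bp merged and 1403 bp with gaps under 2000 bp merged, when the 12 h median was 1650 bp. Where the 5′ end itself had to be covered, 35 members had a region in all lists and 24 in none. With a minimum of 300 bp these counts were 31 and 25. With a minimum of 300 bp the 12 h median (456.5 bp) was under that at 2 h (474 bp). With a minimum of 300 bp, 2 other regions were counted in vehicle and 6 at 2 h. With genes chained up to 500 kb, they numbered 14, 22 and 21 in vehicle, at 2 h and at 12 h. Without the 9 members over 50% repeated, 13 had no region in any list, by construction. That setting and the coding start were chosen after seeing the data.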
